A study of Mus musculus with 9 samples.

Results

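The 9 genes described here are Csf3, Csf3r, Hdc, Srgn, Retnlg, Trem1, Trem3, Fpr1 and Fpr2, taken by symbol from count tables of 23238 gene symbols, where each of the 9 matched 1 entry. They were followed across 3 groups of 3 libraries of back skin from wild-type C57BL/6 (B6) mice, an inbred laboratory strain. In the first group the skin had been tape-stripped, which pulls off the outer epidermis with adhesive tape, and then treated with 100 µL of a cream holding 50 µg of nano-sized graphene oxide (NGO) per mouse. In the second the skin had been tape-stripped and treated with control cream, and in the third it had not been stripped. The labels list control cream for the unstripped samples as well, although the protocol puts cream on the stripped area only. Skin was taken 24 h after treatment, age and sex are not given in the sources used here, and the series title puts the question as whether acute inflammation of skin is eased by the cream. Expression was read as 3′ tags (QuantSeq, from 500 ng of total RNA), in which a transcript gives about one tag near its 3′ end whatever its length. The labels number the replicates without saying whether each is its own animal, and the tests therefore gauge only the spread among these libraries, which may be technical.

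Neutrophils are short-lived blood leukocytes that reach injured skin within hours. Their output from bone marrow and their survival are driven by the cytokine G-CSF (gene Csf3) through its receptor on granulocytes (Csf3r). Once in tissue they find bacterial and mitochondrial formyl peptides through the receptors encoded by Fpr1 and Fpr2, and amplify their response through TREM receptors, which signal through the adaptor DAP12 (Tyrobp). Hdc makes histamine, Srgn encodes serglycin, the proteoglycan that packs secretory granules, and Retnlg encodes a resistin-like protein of rodent neutrophils. Hdc and Srgn are also genes of mast cells, Trem1, Fpr1 and Fpr2 are also used by monocytes, and Csf3 is made by epithelial, stromal and myeloid cells rather than being a neutrophil marker.

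Library totals ran from 2997238 to 6303322 counts in NGO-treated skin, from 2019739 to 4053655 in stripped control skin and from 2794791 to 2937738 in unstripped skin. Levels are in CPM, counts scaled to the TMM-adjusted size of the library, in which 1 count was worth 0.166 to 0.302 CPM in NGO-treated skin, 0.321 to 0.517 CPM in stripped control skin and 0.295 to 0.344 CPM in unstripped skin. Where a group had no count, the limit of 3 counts over its libraries came to 0.220 CPM in NGO-treated skin and 0.369 CPM in stripped control skin, against 0.310 CPM in unstripped skin, which covers counting error only. The libraries differed widely in the tissue they held. The 20 skeletal muscle markers summed to 23677 to 56695 CPM in NGO-treated skin, 52691 to 146798 CPM in stripped control skin and 219 to 1679 CPM in unstripped skin. The 10 basal epidermal markers, which check the labelled tissue, summed to 12488 to 19121 CPM in NGO-treated skin, 1970 to 3138 CPM in stripped control skin and 23375 to 32218 CPM in unstripped skin, so none of the 3 groups lacked them. After stripping 20 of the 20 muscle markers rose and 8 of the 10 epidermal markers fell, and with NGO cream 7 of the 10 epidermal markers rose. In bulk tissue, fewer cells of a type and less RNA per cell cannot be told apart, and the part of these shifts in tissue content in the results below was not tested. Taking the muscle markers out of the library sizes left the calls of the 9 genes as they were in all 3 comparisons. That setting shifted log2 fold changes by a median of only 0.04 after stripping and -0.01 with NGO cream. It checks the scaling alone and does not gauge the part of tissue content.

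After stripping, 7 of the 9 genes rose against unstripped skin: Csf3, Retnlg, Hdc, Srgn, Trem1, Fpr1 and Fpr2. Across all 13740 genes tested, 5.97% were called higher and 7.64% lower in that comparison, 13.6% in all (edgeR's quasi-likelihood test, adjusted p under 0.05). None of the 9 was called lower (0 at an unadjusted p under 0.05, and 0 with DESeq2 or limma-voom). In 7 of the 9 the groups did not overlap, stripped control skin being higher, as in 13.8% of all genes. With NGO cream 2 of the 9 fell against stripped control skin, Hdc and Retnlg, where 1.18% of all genes were called lower, 3.87% higher and 5.05% in all (532 genes higher and 162 lower, or 428 and 215 with RLE in place of TMM scaling), and none was called higher (0 at an unadjusted p under 0.05, and 0 with DESeq2). In 5 of the 9 the NGO-treated libraries all lay under the stripped control libraries, as in 8.92% of all genes. Against unstripped skin, 3 were still higher in NGO-treated skin, Hdc, Retnlg and Srgn, where 2.06% of all genes were called higher, 0.451% lower and 2.51% in all. In 5 of the 9 all NGO-treated libraries lay above the unstripped ones, as in 11.9% of all genes. The low-count filter asked for about 3.34 CPM in 3 libraries, and Csf3, Retnlg, Trem1 and Fpr1 met it with no help from unstripped skin, so the count of genes that rose is partly fixed by that filter. The fitted fold changes of the 9 genes had a median of 6.14 (log2) after stripping, against -0.20 over all genes tested, and of -2.61 with NGO cream, against 0.07 over all genes tested. Both comparisons use the same stripped control libraries.

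**Figure D1:**
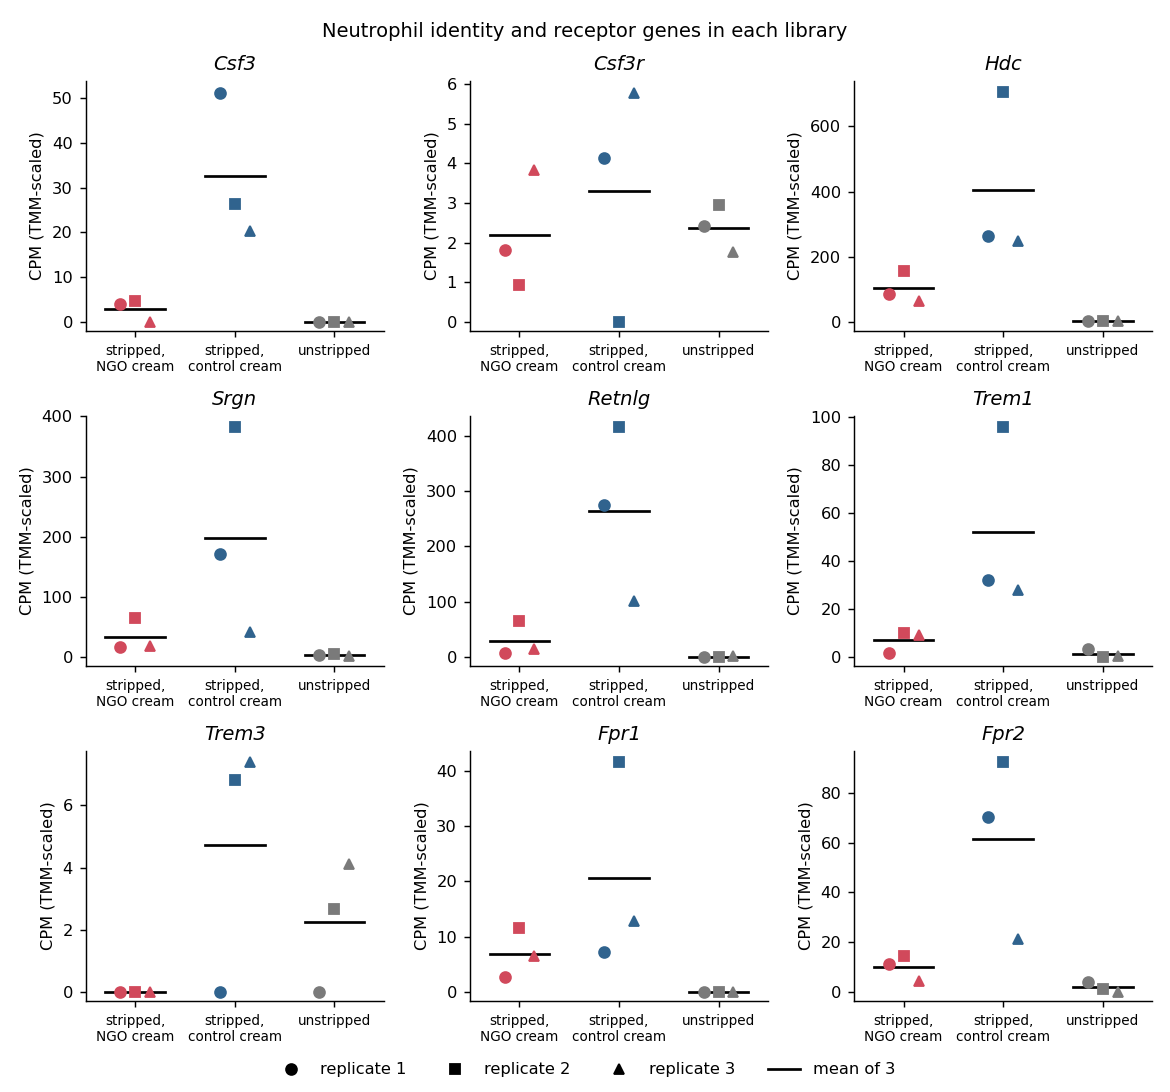
Level of each of the 9 genes in each library, in TMM-scaled CPM on a linear axis that starts near 0 and differs between panels. Groups run from NGO-treated through stripped control to unstripped skin, symbols mark the replicate number and bars the mean of 3 libraries. Replicate 2 of stripped control skin was the highest library for 6 of the 9 genes, while Csf3r stayed under 6 CPM in every library.

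Csf3 (mm10 chromosome 11, 98701263 to 98703629, plus strand) encodes the ligand G-CSF. It had 51.2, 26.3 and 20.2 CPM in stripped control skin and 0 counts in all 3 unstripped libraries. The groups did not overlap, and Csf3 was at least 105-fold higher after stripping, computed against 3 counts over the unstripped group (edgeR adjusted p = 0.0121). In NGO-treated skin the 3 libraries had 3.93, 4.63 and 0 CPM, all under the lowest stripped control library. The difference from stripped control skin was -3.51 ± 1.49 on the log2 scale (SE, n = 3 each) and did not pass (edgeR adjusted p = 0.202, unadjusted p = 0.0377). Against unstripped skin, the 33 counts of the NGO group gave a level at least 9.21-fold higher, which did not pass either (edgeR adjusted p = 0.2).

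Csf3r (chromosome 4, 126024550 to 126044440, plus strand) encodes the receptor for this ligand and is a defining gene of the granulocyte lineage. It did not follow the other genes. Its level was 1.81, 0.93 and 3.83 CPM in NGO-treated skin and 4.14, 0 and 5.78 CPM in stripped control skin, against 2.41, 2.95 and 1.77 CPM in unstripped skin. The 3 groups overlapped, and their summed counts were 33, 26 and 23. The library with no Csf3r count was replicate 2 of stripped control skin, the one in which most of the other genes peaked, and a count of 0 there allows up to 0.975 CPM. The log2 difference was 0.47 ± 1.76 after stripping (95% interval -3.31 to 4.25, edgeR adjusted p = 0.907) and -0.58 ± 1.75 with NGO cream (-4.35 to 3.19, adjusted p = 0.895). These intervals are wide, so a change of several fold in either direction was not detectable at these counts. By level, this defining gene did not set stripped skin apart from unstripped skin. The nearest gene of the tables past its 3′ end, Mrps15, lies 2484 bases away on the same strand.

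Hdc (chromosome 2, 126593667 to 126619299, minus strand), the enzyme that makes histamine from histidine, had the smallest standard error of the 9 in each of the 3 comparisons. It had 86.7, 157 and 65.1 CPM in NGO-treated skin and 265, 704 and 247 CPM in stripped control skin, against 3.44, 4.13 and 2.36 CPM in unstripped skin. No 2 of the 3 groups overlapped. Hdc averaged 405 ± 259 CPM in stripped control skin against 3.31 ± 0.892 CPM in unstripped skin (SD, n = 3 each), a log2 fold change of 6.92 ± 0.60 (SE, edgeR adjusted p = 1.49e-05). With NGO cream it averaged 103 ± 48.3 CPM, a log2 difference of -1.98 ± 0.47 from stripped control skin (edgeR adjusted p = 0.0303). That call did not hold in 3 of 9 leave-one-out fits, those lacking stripped control replicate 2, NGO replicate 1 or NGO replicate 3 (largest edgeR adjusted p = 0.12). Hdc was still 31.1-fold higher in NGO-treated than in unstripped skin by the ratio of means (log2 4.95 ± 0.56, edgeR adjusted p = 0.000363).

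The genes of mast cells, the resident skin cells that also use Hdc, gave a mixed picture. Tpsab1 and Fcer1a, a mast cell tryptase and the alpha chain of the IgE receptor, had 0 counts in all 9 libraries, and the carboxypeptidase gene Cpa3 had 2 counts, both in unstripped replicate 3. Other mast cell genes were counted: Mrgprb1, a receptor of mast cells, had 24.8, 9.75 and 0 CPM in stripped control skin, the growth factor receptor gene Kit reached 10.6 CPM in NGO replicate 2 and in stripped control replicate 3, and Ms4a2, the beta chain of the IgE receptor, reached 8.79 CPM in NGO replicate 2. The 17 mast cell and basophil markers summed to 18.5 to 71.5 CPM in NGO-treated skin, 36.1 to 55.3 CPM in stripped control skin and 84.0 to 115 CPM in unstripped skin, of which Hpgds alone made up 71.9 to 102 CPM in unstripped skin. The other 16 summed to 9.96, 32.6 and 10.3 CPM in NGO-treated skin and 44.0, 20.8 and 17.4 CPM in stripped control skin, against 13.1, 15.0 and 12.1 CPM in unstripped skin, so that on this sum stripped control skin lay above unstripped skin without overlap. The part of mast cells in the level of Hdc was not tested. Of the 4 that could be tested, 0 rose after stripping (0 at an unadjusted p under 0.05, and 0 with DESeq2 or limma-voom) and Hpgds, a prostaglandin D2 synthase, fell by 2.15 ± 0.63 on the log2 scale (edgeR adjusted p = 0.0379, not called with limma-voom, lost in 6 of the 9 fits without 1 library, those lacking any unstripped replicate, stripped control replicate 1 or 2, or NGO replicate 1). Of 8 further genes of histamine breakdown, storage and reception, 3 were tested and 0 passed in either direction after stripping or with NGO cream (0 at an unadjusted p under 0.05, and 0 with DESeq2 or limma-voom). Among them Hnmt, which methylates histamine, differed by -0.42 ± 1.32 on the log2 scale after stripping (edgeR adjusted p = 0.886).

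Srgn (chromosome 10, 62493833 to 62527451, minus strand), the granule proteoglycan of neutrophils, mast cells and other blood cells, had 16.6, 64.8 and 18.1 CPM in NGO-treated skin and 172, 382 and 41.8 CPM in stripped control skin, against 2.75, 4.72 and 0.884 CPM in unstripped skin. Both stripped groups lay above unstripped skin without overlap, but they overlapped each other, since NGO replicate 2 exceeded stripped control replicate 3. Its highest stripped control library held 9.14 times the level of the lowest. Srgn rose by 6.14 ± 0.94 after stripping (log2, edgeR adjusted p = 0.000675). With NGO cream the difference from stripped control skin was -2.58 ± 0.78 and did not pass (edgeR adjusted p = 0.0722), though it passed without stripped control replicate 3 (edgeR adjusted p = 0.0275) and with DESeq2 (adjusted p = 0.0113). The rise in NGO-treated over unstripped skin (3.56 ± 0.86, edgeR adjusted p = 0.0454) lost its call in 5 of the 9 fits without 1 library (those lacking any 1 unstripped replicate, NGO replicate 2 or NGO replicate 3, with edgeR adjusted p of at most 0.243), with no low-count filter and with limma-voom (adjusted p = 0.0907 and 0.0627).

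Retnlg (chromosome 16, 48872621 to 48874496, plus strand) is a secreted resistin-like protein described in mouse neutrophils. Of the 7 genes that rose, it gave the largest ratio of means after stripping among those with a count in unstripped skin. It had 6.94, 64.1 and 13.5 CPM in NGO-treated skin, 275, 415 and 102 CPM in stripped control skin, and in unstripped skin 3 counts in replicate 3 and 0 in the other two. No 2 of the 3 groups overlapped. The rise after stripping was 9.59 ± 1.204 on the log2 scale (edgeR adjusted p = 0.000176), a size that rests on those 3 counts. With NGO cream Retnlg fell to 28.2 ± 31.3 CPM, against 264 ± 157 CPM in stripped control skin (SD, n = 3 each), a log2 difference of -3.23 ± 0.81 (edgeR adjusted p = 0.0389). The call did not hold when unstripped replicate 1, stripped control replicate 2, NGO replicate 1 or NGO replicate 3 was left out (largest edgeR adjusted p = 0.121). It stayed above unstripped skin in NGO-treated skin (6.36 ± 1.14, edgeR adjusted p = 0.00733), a call that was lost with no low-count filter (adjusted p = 0.0819). The other members of its family were low: of Retn, Retnla and Retnlb, 2 were tested and 0 passed after stripping or with NGO cream (at most 1 at an unadjusted p under 0.05, Retnla with NGO cream, and 0 with DESeq2 or limma-voom).

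Promoters are shown for Retnlg, Trem1, Fpr1 and Fpr2, 4 genes that rose after stripping and whose RefSeq start lies close to the GENCODE start. The sequences are RefSeq windows of the GRCm38.p6 build (the mm10 assembly), read 5′ to 3′ on the gene's own strand, and hold the 250 bases before the start. RefSeq windows were on hand for 7 of the 9 genes (8 windows, 2 of them of Srgn), and none for Csf3 or Trem3. In the full windows of 300 bases, which run 50 bases past the start, 4 motifs were searched on both strands: TTNNGNAAT for C/EBP factors (in 11.5% of all 32851 windows), GAGGAAGT for PU.1 (3.2%), GGANTTTCC for NF-kB (1.25%) and GAGATTCC, the CK-1 element of cytokine genes (0.904%). None of the 8 windows held any of them, which says only that these letters are absent from these bases. Shorter forms were then searched, TTNNGNAA (40.7% of all windows, in 5 of the 8) and GAGGAA (28.3%, in 3 of the 8), of which the first is contained in the longer C/EBP motif and the second in the longer PU.1 motif. Capitals mark the matches of these shorter forms on either strand. Srgn also rose, and its window at chr10:62527396-62527695 (minus strand) has its start close to the GENCODE start too. That window held no match even of the shorter forms and is not shown, so the 4 promoters shown are all ones with a match. In Retnlg the single match begins 246 bases before the start:
Retnlg (chr16:48872358-48872607, plus strand): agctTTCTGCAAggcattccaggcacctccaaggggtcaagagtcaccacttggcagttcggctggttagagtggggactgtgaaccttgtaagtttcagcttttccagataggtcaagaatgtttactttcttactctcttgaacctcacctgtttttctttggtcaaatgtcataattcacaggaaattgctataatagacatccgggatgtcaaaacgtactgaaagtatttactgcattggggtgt

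Trem1 (chromosome 17, 48232768 to 48246924, plus strand), the receptor that amplifies inflammatory signals in neutrophils and monocytes, and Trem3 (chromosome 17, 48247777 to 48258841, plus strand), a related activating receptor of mouse myeloid cells, are neighbours, 852 bases apart and in the same orientation. In Trem1 one capital run lies 162 and the other 35 bases before the start:
Trem1 (chr17:48232489-48232738, plus strand): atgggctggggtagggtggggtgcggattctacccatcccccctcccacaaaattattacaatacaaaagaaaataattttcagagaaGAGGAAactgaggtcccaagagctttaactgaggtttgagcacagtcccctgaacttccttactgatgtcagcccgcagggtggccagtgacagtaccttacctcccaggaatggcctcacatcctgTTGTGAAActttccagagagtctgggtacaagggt

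Trem1 had 1.51, 10.2 and 8.98 CPM in NGO-treated skin and 32.1, 95.9 and 27.95 CPM in stripped control skin, against 3.10, 0 and 0.295 CPM in unstripped skin. Stripped control skin lay above both other groups without overlap, while NGO-treated and unstripped skin overlapped. Trem1 rose by 5.52 ± 1.35 after stripping (log2, edgeR adjusted p = 0.0146), a call that was lost without unstripped replicate 3 or stripped control replicate 2 (up to edgeR adjusted p = 0.0675). With NGO cream the difference from stripped control skin was -2.90 ± 1.16 (edgeR adjusted p = 0.17), and that of NGO-treated from unstripped skin was 2.62 ± 1.22 (edgeR adjusted p = 0.43). Neither passed.

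Trem3 had another pattern. It had no count in any NGO-treated library and 0, 6.82 and 7.39 CPM in stripped control skin, against 0, 2.65 and 4.13 CPM in unstripped skin. The stripped control and unstripped groups overlapped, and the difference between them was 1.06 ± 2.07 on the log2 scale (edgeR adjusted p = 0.812). The NGO group was at least 21.6-fold lower than stripped control skin against the limit of 3 counts, and at least 10.3-fold lower than unstripped skin, but each of those groups also held 1 library at 0 and neither difference passed (edgeR adjusted p = 0.153 and 0.366). In the 3 NGO-treated libraries Trem1 had 5, 44 and 54 counts where Trem3 had none. In stripped control replicates 2 and 3 Trem1 had 14.05 and 3.78 counts for each Trem3 count, and in unstripped replicates 2 and 3 it had 0 and 1 counts beside 9 and 14 counts of Trem3. The neighbours thus differed in which libraries held them, on counts of at most 23 for Trem3 in a library.

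Of 12 further genes of the TREM family and of DAP12 signalling, 8 were tested, and 0 passed after stripping (2 higher at an unadjusted p under 0.05, and 2 higher with DESeq2 and with limma-voom) or with NGO cream (2 lower at an unadjusted p under 0.05, 1 lower with DESeq2 and 0 with limma-voom). Tyrobp, which encodes DAP12, averaged 11.1 ± 5.36 CPM in NGO-treated skin and 74.6 ± 73.2 CPM in stripped control skin, against 12.4 ± 5.60 CPM in unstripped skin (SD, n = 3 each). Its log2 differences were 2.59 ± 0.81 after stripping (edgeR adjusted p = 0.0507) and -2.74 ± 0.82 with NGO cream (edgeR adjusted p = 0.071). Syk, the kinase that DAP12 recruits, differed by 2.29 ± 1.11 and -2.64 ± 1.12 (edgeR adjusted p = 0.2 and 0.193). The list's median log2 fold change was 1.46 after stripping and -1.54 with NGO cream.

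Fpr1 (chromosome 17, 17876471 to 17883940, minus strand) and Fpr2 (chromosome 17, 17887824 to 17893952, plus strand) encode the formyl peptide receptors of neutrophils and monocytes, of which the second also binds serum amyloid A and annexin A1. They lie 3883 bases apart and are read away from each other. Fpr2 overlaps Fpr3 on the same strand in the gene models, and Fpr3 was listed at 0 in all 9 libraries, so a count for Fpr2 may include tags of either. Their promoters, from the space between them, hold 3 capital runs each. A further match of Fpr2 crosses the start and is not marked:
Fpr1 (chr17:17883940-17884189, minus strand): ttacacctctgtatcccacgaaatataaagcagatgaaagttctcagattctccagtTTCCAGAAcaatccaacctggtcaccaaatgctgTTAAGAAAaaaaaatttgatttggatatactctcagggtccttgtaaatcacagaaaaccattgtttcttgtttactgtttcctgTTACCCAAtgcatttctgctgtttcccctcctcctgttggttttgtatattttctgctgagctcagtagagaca
Fpr2 (chr17:17887574-17887823, plus strand): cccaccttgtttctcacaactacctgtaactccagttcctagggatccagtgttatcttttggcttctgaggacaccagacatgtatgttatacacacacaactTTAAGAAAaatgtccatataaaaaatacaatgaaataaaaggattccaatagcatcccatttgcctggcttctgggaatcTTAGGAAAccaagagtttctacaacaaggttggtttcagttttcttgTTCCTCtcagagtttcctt

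Fpr1 had 2.72, 11.6 and 6.49 CPM in NGO-treated skin, 7.24, 41.6 and 12.9 CPM in stripped control skin and 0 counts in all 3 unstripped libraries. Stripped control skin lay above unstripped skin in 3 of 3 libraries, at least 66.4-fold by the group limit (edgeR adjusted p = 0.00976). Both stripped groups overlapped, since NGO replicate 2 exceeded stripped control replicate 1, and their log2 difference of -1.57 ± 1.29 did not pass (95% interval -4.39 to 1.26, edgeR adjusted p = 0.538). NGO-treated skin was at least 22.4-fold above unstripped skin, without overlap, and did not pass (edgeR adjusted p = 0.0678), though it passed with no low-count filter, with DESeq2, with limma-voom and without stripped control replicate 1 (adjusted p = 0.0463, 0.000729, 0.00722 and 0.0399).

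Fpr2 had 11.2, 14.6 and 4.33 CPM in NGO-treated skin and 70.3, 92.3 and 21.2 CPM in stripped control skin, against 4.13, 1.18 and 0 CPM in unstripped skin. No 2 of the 3 groups overlapped, though the lowest NGO-treated library was close to the highest unstripped one. Fpr2 rose by 5.11 ± 1.17 after stripping (log2, edgeR adjusted p = 0.0106). With NGO cream it differed by -2.61 ± 1.02 from stripped control skin (edgeR adjusted p = 0.161) and by 2.50 ± 1.07 from unstripped skin (edgeR adjusted p = 0.364), neither of which passed. Fpr2 had 4.11, 1.26 and 0.667 counts for each Fpr1 count in NGO-treated libraries 1 to 3, and 9.71, 2.22 and 1.65 in stripped control libraries 1 to 3. The balance of the 2 receptors thus differed widely among libraries of 1 group, and the 2 groups overlapped.

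Of 14 further genes of formyl peptide receptors, their ligand and their signalling found in the tables, 9 were tested. After stripping 1 rose and 2 fell (1 and 3 at an unadjusted p under 0.05 and with DESeq2, but 1 and 0 with limma-voom), and with NGO cream 0 passed (at an unadjusted p under 0.05, 1 was higher and 1 lower, the same counts as with DESeq2, and 0 with limma-voom). Rac2, the GTPase of the leukocyte oxidase and cytoskeleton, rose by 3.13 ± 0.90 on the log2 scale (edgeR adjusted p = 0.0346). Anxa1, a ligand of Fpr2 that epidermis also makes, fell by 2.38 ± 0.66 (edgeR adjusted p = 0.0277), and Plcb3, a phospholipase downstream of such receptors, fell by 4.46 ± 1.23 (edgeR adjusted p = 0.0274). For Anxa1 the groups overlapped, with 26.4, 46.8 and 28.3 CPM in stripped control skin and 28.9, 233 and 269 CPM in unstripped skin. Without 1 library, the call of Rac2 was lost 4 times (any unstripped replicate or stripped control replicate 2), that of Anxa1 4 times (unstripped replicates 2 and 3, stripped control replicates 1 and 3) and that of Plcb3 3 times (unstripped replicates 1 and 3, stripped control replicate 2). The receptor genes Fpr-rs3, Fpr-rs4 and Fpr-rs6 had no count in any library.

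**Figure D2:**
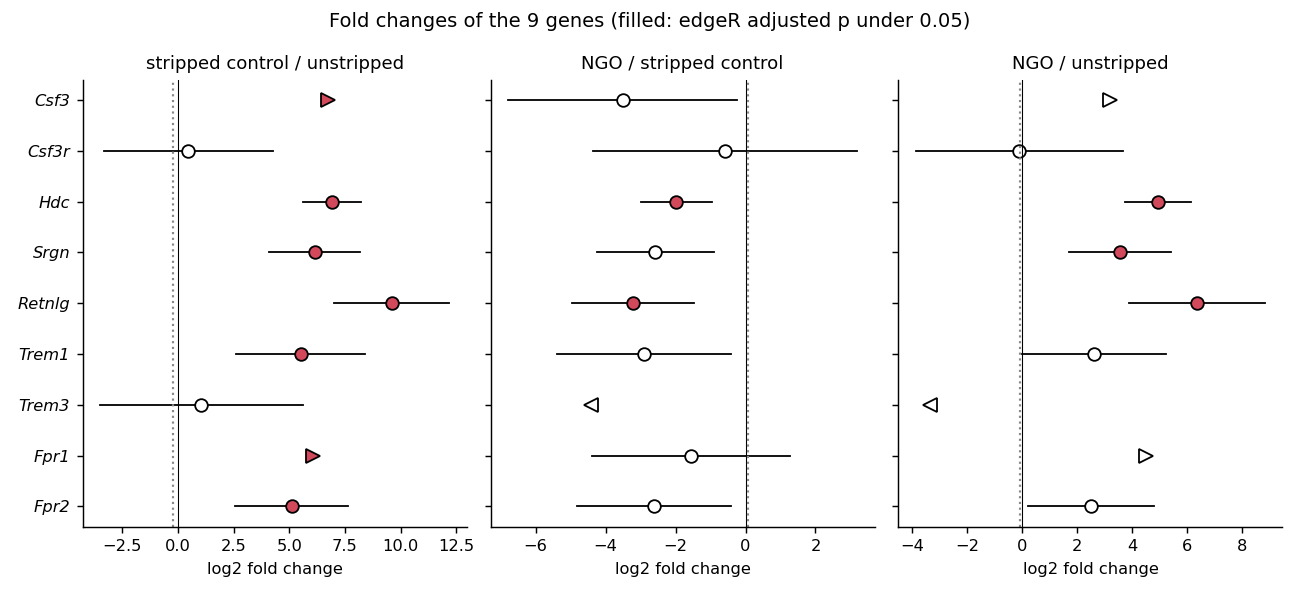
Log2 fold change of each gene in the 3 comparisons, with a 95% interval computed from edgeR's F value. A filled symbol marks an adjusted p under 0.05 and the dotted line the median of all 13740 genes tested. Triangles mark lower bounds computed against 3 counts over a group that had none, and point in the direction of the change. The 7 genes right of 0 and filled in the first panel contrast with Csf3r and Trem3, whose intervals span 0.

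Libraries within a group were not alike for these genes. Stripped control replicate 2 was the highest of its group for 6 of the 9, and NGO replicate 2 was the highest of its group for 7 of the 9. The summed level of the 9 genes was 131, 328 and 120 CPM in NGO-treated libraries 1 to 3, 877, 1764 and 486 CPM in stripped control libraries 1 to 3 and 15.8, 15.6 and 10.3 CPM in unstripped libraries 1 to 3. So the highest NGO-treated library was below the lowest stripped control library on this sum. Hdc alone made up 48.0 to 66.0% of the counts of the 9 genes in NGO-treated libraries and 30.2 to 50.9% in stripped control libraries. The sum thus weighs the most abundant genes and does not speak for each of the 9. Stripped control replicate 2 was also the highest of its group in the summed 8 pan-leukocyte markers (646 CPM, against 346 and 292 CPM in replicates 1 and 3) and in the 16 monocyte and macrophage markers (958 CPM, against 376 and 479 CPM). The part of other leukocytes in the values of the 9 genes was not tested.

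The pan-leukocyte sum did not follow the 9 genes into all groups. It was 195 to 221 CPM in NGO-treated skin, 292 to 646 CPM in stripped control skin and 266 to 322 CPM in unstripped skin, lowest with NGO cream. Of the 8 markers, Rac2 rose after stripping and Lcp1, an actin-bundling protein of leukocytes, fell with NGO cream by 1.69 ± 0.42 (log2, edgeR adjusted p = 0.0357, not called with limma-voom, and without 1 library held only in the fits lacking stripped control replicate 1 or 3). The monocyte and macrophage sum was 383 to 421 CPM in NGO-treated skin, 376 to 958 CPM in stripped control skin and 231 to 330 CPM in unstripped skin. Among its 16 genes Cd68 (4.33 ± 0.65, edgeR adjusted p = 0.000553) and the lipopolysaccharide co-receptor Cd14 (7.92 ± 1.19, adjusted p = 0.000594) rose after stripping. With NGO cream Cd68 and Cd14 differed by -1.95 ± 0.57 and -3.04 ± 0.90 from stripped control skin, and neither passed (edgeR adjusted p = 0.0686 and 0.068).

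**Figure D3:**
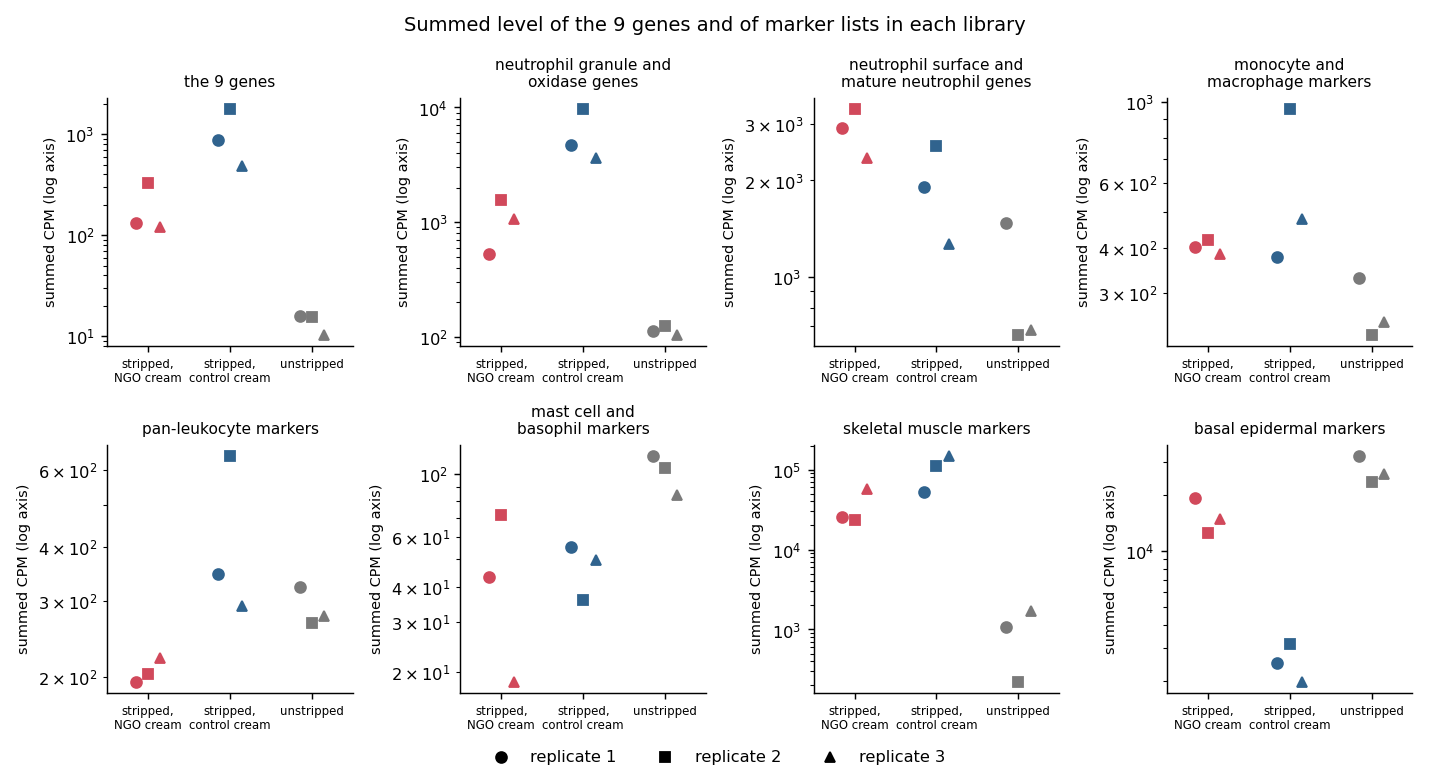
Summed TMM-scaled CPM of the 9 genes and of 7 marker lists in each library, on log axes that differ between panels. Groups run from NGO-treated through stripped control to unstripped skin, and symbols mark the replicate number. The sums of the 9 genes and of the granule genes were highest in stripped control skin in every library. The sum of the muscle markers was lowest in unstripped skin and that of the basal epidermal markers lowest in stripped control skin.

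Genes listed here for neutrophils moved in part with the 9. Other cells may use such genes too, and the cells that these counts came from were not tested. Of 20 granule and oxidase genes 13 were tested, of which 4 rose and 0 fell after stripping (7 and 0 at an unadjusted p under 0.05, and 0 lower with DESeq2 or limma-voom). The list's median log2 fold change was 2.77. Those that rose were S100a8 and S100a9, the subunits of calprotectin, Lcn2, an iron-binding antibacterial protein (7.17 ± 0.87, edgeR adjusted p = 0.000138), and Ngp, a granule protein. Ngp had 74, 164 and 2 counts in stripped control skin, against 0 in unstripped skin (edgeR adjusted p = 0.0296), and lost its call without stripped control replicate 2 or any unstripped replicate. With NGO cream 3 of the 13 fell (median of the list -1.86), S100a8 (-2.70 ± 0.59, edgeR adjusted p = 0.0221), S100a9 (-2.50 ± 0.48, adjusted p = 0.012) and the collagenase Mmp8 (-3.24 ± 0.70, adjusted p = 0.0211). Mmp8 had not passed after stripping (edgeR adjusted p = 0.0976). Its NGO-treated libraries (17.2, 7.63 and 7.32 CPM) also lay below the unstripped ones (22.0, 36.3 and 31.5 CPM), which did not pass (edgeR adjusted p = 0.388). Leaving out 1 library ended the call of S100a9 for NGO replicates 1 and 3, that of S100a8 for any NGO replicate or stripped control replicate 2, and that of Mmp8 for NGO replicates 2 and 3 or stripped control replicate 1. Mpo, Elane, Prtn3, Ctsg and Camp, granule genes that neutrophils transcribe as precursors in the bone marrow, had no count in any library. The granule list summed to 531 to 1574 CPM in NGO-treated skin, 3617 to 9658 CPM in stripped control skin and 103 to 123 CPM in unstripped skin. S100a8 and S100a9 made up most of that sum in both stripped groups. In stripped control skin S100a8 had 2234, 3984 and 1310 CPM and S100a9 2105, 5243 and 1927 CPM. With NGO cream they had 188, 568 and 405 CPM and 245, 872 and 522 CPM. The sum thus does not speak for the other granule genes.

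Of 26 surface and mature neutrophil genes 25 were in the tables (Ly6g was not analysed here) and 21 were tested. After stripping 5 rose and 1 fell (11 and 1 at an unadjusted p under 0.05 and with DESeq2, but 10 and 0 with limma-voom), with a median log2 fold change of 1.79. Clec4e, a C-type lectin that senses damaged cells, rose by 6.19 ± 1.04 (edgeR adjusted p = 0.00134), the secreted protease inhibitor Slpi by 7.55 ± 0.96 (adjusted p = 0.000192) and Wfdc17 by 7.31 ± 1.09 (adjusted p = 0.00054). Clec4d, a related lectin, had 116, 392 and 178 counts in stripped control skin and 0 in unstripped skin. Stfa2l1, a stefin A gene, had 23, 39 and 72 counts in stripped control skin and 0 in unstripped skin (edgeR adjusted p = 0.0331, lost without any 1 unstripped replicate or stripped control replicate 3). With NGO cream 0 fell (4 at an unadjusted p under 0.05, 4 with DESeq2 and 2 with limma-voom) and 2 rose. These were Ltb4r1, a leukotriene B4 receptor (2.45 ± 0.37, edgeR adjusted p = 0.00269), which had fallen after stripping (-1.31 ± 0.36, adjusted p = 0.0254, lost without unstripped replicate 1 or 2 or stripped control replicate 3), and BC100530, a gene of the stefin A cluster (1.89 ± 0.40, adjusted p = 0.0194). BC100530 averaged 1645 ± 227 CPM in NGO-treated skin and 443 ± 102 CPM in stripped control skin, against 499 ± 323 CPM in unstripped skin, and its call was lost without NGO replicate 1 or 2. Ltb4r1 had 112, 79.3 and 67.2 CPM in unstripped skin, so neither gene was confined to stripped skin. The list's sum went another way than that of the granule genes, with 2358 to 3339 CPM in NGO-treated skin and 1264 to 2567 CPM in stripped control skin, against 658 to 1477 CPM in unstripped skin. Without BC100530 it was 974.9 to 1551 CPM in NGO-treated skin and 900 to 2160 CPM in stripped control skin, against 355 to 605 CPM in unstripped skin. Stfa1 and Stfa3, further stefin A genes, still weighed on that remainder. They averaged 468 and 257 CPM in NGO-treated skin, 259 and 94.8 CPM in stripped control skin and 120 and 73.3 CPM in unstripped skin. The median log2 fold change of the 21 tested genes with NGO cream was -1.62, below 0 like that of the granule list. The contrast of the sums thus rests on a few stefin genes. Cxcr2, the neutrophil chemokine receptor, was counted in every library, with 28, 23 and 32 counts in NGO-treated skin, 74, 87 and 13 in stripped control skin and 3, 10 and 15 in unstripped skin. Cxcr1 of the same list went another way, with 22, 0 and 90 counts in NGO-treated skin and 0 in both other groups. Cd177 had 17, 37 and 29 counts in stripped control skin and 0 in both other groups.

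Of 23 further genes of the colony-stimulating factors and their signalling 16 were tested, of which 3 rose and 1 fell after stripping. Socs3, a feedback inhibitor induced by STAT3, rose by 2.70 ± 0.49 (log2, edgeR adjusted p = 0.00226), Cebpd, a transcription factor gene, by 2.98 ± 0.44 (adjusted p = 0.000517) and Csf2rb, the shared receptor chain for GM-CSF, IL-3 and IL-5, by 1.83 ± 0.46 (adjusted p = 0.0174). Cebpa, a transcription factor of both myeloid cells and epidermis, fell by 3.32 ± 0.86 (adjusted p = 0.0204). The calls of Csf2rb and Cebpa were each lost without unstripped replicate 1 or 3. With NGO cream 0 passed (at an unadjusted p under 0.05, 1 was higher and 3 lower, 3 lower with DESeq2 and 1 lower with limma-voom), and Socs3 and Cebpd differed by -1.54 ± 0.47 and -1.25 ± 0.42 (edgeR adjusted p = 0.0755 and 0.0999). The related cytokine genes Csf2 and Il3, and Il17a, whose product induces G-CSF, had no count in any library.

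**Figure D4:**
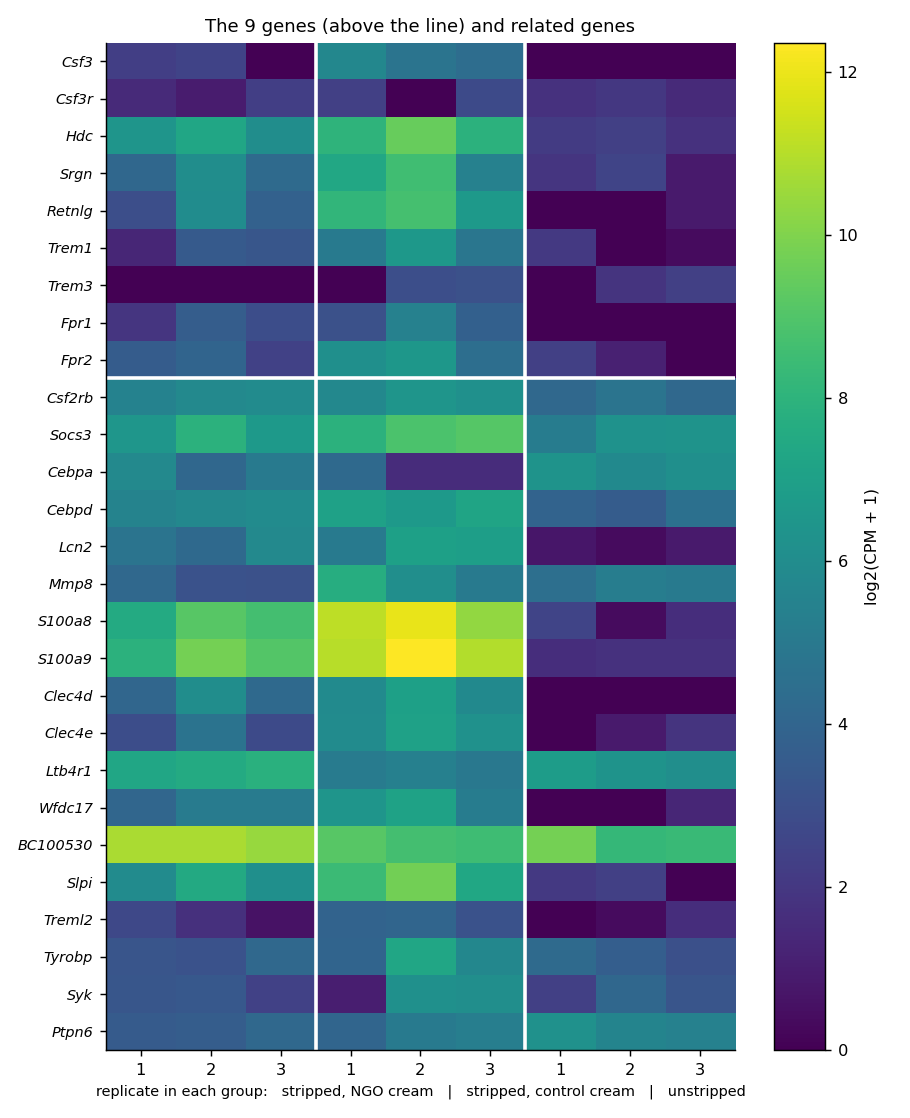
Level as log2(CPM + 1) of the 9 genes (above the white line) and of related genes named by rule from 4 lists (below it), with libraries in columns grouped from NGO-treated through stripped control to unstripped skin. S100a8 and S100a9 were brightest in stripped control replicate 2, as were Hdc, Srgn and Retnlg, whereas Ltb4r1 and BC100530 were brightest in NGO-treated libraries.

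Among 9431 other genes with a mean of 10 CPM or more, those whose log2 CPM over the 9 libraries was most like the mean of the 9 genes were Il1b (Pearson r = 0.986), Ctcfl (0.985), AI314278 (0.985), Sod2 (0.982) and Fth1 (0.982). Il1b encodes interleukin-1 beta, Sod2 a mitochondrial superoxide dismutase and Fth1 the ferritin heavy chain. For Csf3r they included Zfp358 (0.947), Zfp821 (0.944), Pip4k2b (0.931) and Gstz1 (0.930), none of which is among those most like the mean. These are descriptions over 9 libraries that fall into 3 groups and share depth and scaling, and for Csf3r they rest on 82 counts in all.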

How the data were processed

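For each of the 9 libraries the authors deposited a table that pairs gene symbols with raw counts. Per the submitters' processing notes, Bowtie2, bedtools and the mm10 build were used; versions, strand and the treatment of tags with several matches are not given in the sources used here. Each table held 23282 entries, with repeat entries kept apart, and no entry lacked a name. Gene positions came from GENCODE M21 and promoters from RefSeq.

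Counts were analysed in R 4.3.3 with edgeR 4.0.16 (robust quasi-likelihood test, all 9 libraries in 1 fit, group as factor, TMM scaling, filterByExpr), with Benjamini-Hochberg adjustment over 13740 genes and a threshold of 0.05. Fitted alone, the groups differed in spread (coefficient of variation 0.83 in NGO-treated, 1.09 in stripped control and 0.46 in unstripped skin). The joint fit shares 1 estimate, so NGO-treated against stripped control skin also draws on the spread of unstripped skin. The script was tested on data simulated with 1 spread for all genes and groups, smaller than in these libraries. That test does not gauge the calls at the spread seen here. Standard errors of log2 fold changes were computed as the size of the fold change over the square root of edgeR's F value. Intervals were built from these with a t quantile, so both rest on the spread of the joint fit. With 3 libraries against 3 an exact permutation test cannot go below 0.1, so none is given. Alternatives were RLE scaling, other filters, DESeq2 1.42.0, limma-voom (limma 3.58.1), a replicate block, 2-group fits, library sizes without muscle markers or Rn45s, and leaving out each library.

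The 9 genes and the 12 gene lists were chosen with earlier results of these data known. Of each list, up to 3 tested genes with the smallest p after stripping and with NGO cream are named. Ngp, Stfa1, Stfa2l1, Stfa3, Cxcr1, Cxcr2, Cd177 and genes named at 0 counts were chosen after their values were seen, as were the shorter motifs. No protein sequences were used here. A few genes that the naming rule selects are not reported here.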

Additional observations from a re-analysis of the deposited data

How the results depend on the processing

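The 7 rises after stripping were called under every alternative run that kept all libraries, and without 1 library 6 or 7 were called. With NGO cream the 2 falls became 1 with no low-count filter, 6 with DESeq2 (Csf3, Fpr2, Srgn and Trem1 added) and 0 with the 2 compared groups alone, and 0 to 3 without 1 library. They were 0 without stripped control replicate 2, NGO replicate 1 or NGO replicate 3. For NGO-treated against unstripped skin the 3 rises became 5 with DESeq2 (Csf3 and Fpr1 added), Fpr1 and Hdc with no low-count filter, Fpr1, Hdc and Retnlg with limma-voom, and 2 to 4 without 1 library. Over all genes, 1870 were called after stripping (3127 with DESeq2, 1159 to 2124 without 1 library), 694 with NGO cream (1942 with DESeq2, 420 with limma-voom, 118 with the 2 groups alone, 206 to 929 without 1 library) and 345 for NGO-treated against unstripped skin (811, 1284, 602 and 214 to 495). RLE scaling moved the median log2 fold change by 0.13 after stripping and -0.12 with NGO cream, and the NGO split from 532 higher and 162 lower to 428 and 215. The cause of these changes was not tested.

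Over 474 single-gene values, 7 changed sign, all of Csf3r. After stripping it was -0.93 with limma-voom, -0.29 with the replicate block, and -0.28 (lacking stripped control replicate 3) to 1.07 without 1 library. With NGO cream it was 0.59 with limma-voom, and -1.29 to 0.22 (lacking stripped control replicate 3) without 1 library. For NGO-treated against unstripped skin it was -0.80 to 0.24 without 1 library, above 0 when unstripped replicate 2 or NGO replicate 2 was left out (0.06 and 0.24). Deviations from the group mean correlated at -0.06 to 0.09 between same-numbered libraries and at -0.135 to 0.067 between differently numbered ones. With 3 libraries a group, values this close cannot show whether the numbers pair the libraries. With the replicate block 7, 3 (Srgn added) and 3 of the 9 genes were called in the 3 comparisons, and 1650, 559 and 313 of all genes. Csf3r and Trem3 had 82 and 67 counts in all, and neither could be tested under a filter of 20 counts in 3 libraries. Why these 2 genes had so few counts was not tested.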
